A study of Mus musculus with 5 samples.

Results

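The small RNA host genes Snhg1, Snhg3, Snhg5, Snhg6, Snhg8, Snhg12, Gas5 and Mir17hg and the nuclear long noncoding RNA genes Malat1 and 6720401G13Rik were taken by name from the deposited RefSeq gene table. All 10 were present among its 18307 genes. The names were picked with the caffeine and vehicle values of these libraries known, so the differences between groups given below are descriptions, and no test of them is used as support. Pregnant CD-1 mice, an outbred strain, received caffeine at 20 mg/kg or vehicle (0.9% NaCl) once a day between E6.5 and E9.5, and heart ventricles were taken from the embryos at E10.5. RNA was read in 2 vehicle and 3 caffeine libraries, each made from the pooled ventricles of embryos that shared dams, and the labels name no genetic change in either group. Library totals were 21713381 to 25048134 counts.

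A small RNA host gene is transcribed as a long RNA whose introns or exons hold small RNAs. Intronic snoRNAs, which guide chemical modification or cleavage of ribosomal RNA, are cut out of the introns of Snhg genes and Gas5, and the spliced remainder of several of these hosts is known to be removed by nonsense-mediated decay when it is translated. Mir17hg is the precursor of the miR-17-92 cluster, microRNAs known for their part in growth of the embryonic heart and lung. Malat1 is an abundant RNA of nuclear speckles, and 6720401G13Rik, listed in RefSeq today as Firre, is a nuclear RNA of the X chromosome with repeated sequence that is known to help organise chromatin.

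What the deposited rows cover decides which RNA their counts stand for. In the GENCODE M21 annotation (GRCm38, the files' build), 8 of the 10 genes hold snoRNAs or microRNAs and 27 snoRNAs lie in 7 of them: 8 in Snhg1, 9 in Gas5, 4 in Snhg12, 2 each in Snhg3 and Snhg5 and 1 each in Snhg6 and Snhg8. All 27 lie inside the deposited span of their host. That span includes introns, and the transcript matched to Snhg1, for example, holds 605 bases of a 2840-base span. Lying inside the span thus does not mean being counted with the host. The pair in Snhg5 is shown because that gene had the largest difference among the snoRNA hosts. Snord50a (chr9:88521529-88521600, minus strand) and Snord50b (chr9:88521797-88521868, minus strand) are C/D box snoRNAs, and capitals mark the C box core tgatga and the D box ctga that a search of the letters found:
Snord50a: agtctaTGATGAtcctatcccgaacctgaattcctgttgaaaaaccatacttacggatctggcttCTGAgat
Snord50b: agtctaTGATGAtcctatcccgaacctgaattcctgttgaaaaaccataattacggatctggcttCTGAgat
The pair differs at 1 of 72 positions, C50A, counted from the 5′ end of Snord50a.

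Mir17hg holds 6 microRNA hairpins, and the deposited row covers few of them. The row runs from 115044390 to 115046728 on chromosome 14 (plus strand), and 1 of the 6 hairpins, Mir92-1, lies inside it. Mir19b-1 overlaps its first bases and Mir17, Mir18, Mir19a and Mir20a lie upstream of it. The count of this row therefore stands for the RNA downstream of most of the cluster. The mature microRNAs are shown because they are the products for which the host is known, with the seed (bases 2 to 8) in capitals, from RefSeq (GRCm38.p6):
miR-17-5p: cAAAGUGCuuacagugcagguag
miR-20a-5p: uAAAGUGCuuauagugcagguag
miR-18a-5p: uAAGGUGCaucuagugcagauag
miR-19a-3p: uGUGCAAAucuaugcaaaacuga
miR-19b-3p: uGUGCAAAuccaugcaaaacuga
miR-92a-3p: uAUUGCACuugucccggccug
miR-17-5p and miR-20a-5p share a seed, as do miR-19a-3p and miR-19b-3p, while the seeds of miR-18a-5p and miR-92a-3p are each held by 1 mature sequence of the cluster. The levels of the mature microRNAs were not analysed here.

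**Figure D1:**
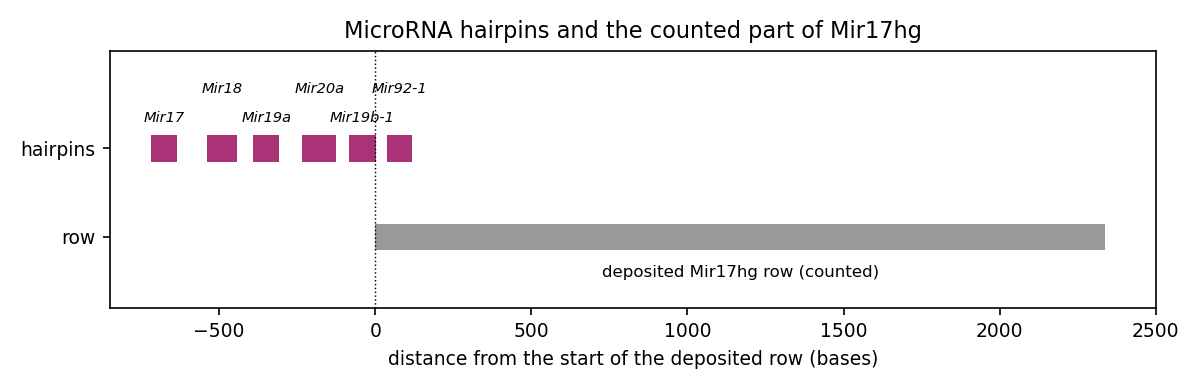
The horizontal axis gives the distance in bases from the start of the deposited Mir17hg row, which is the grey bar, and the coloured boxes are the 6 hairpins. Mir92-1 begins at 37 on this axis and Mir17 at -719, so 4 hairpins lie wholly to the left of the row.

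The first bases of the snoRNA hosts were compared as well, since these genes are known for starts in a run of pyrimidines, the feature of terminal oligopyrimidine (TOP) RNAs. The windows run from 40 bases before the RefSeq start to 20 bases from it on, with a run of at least 5 C or T that reaches within 10 bases of the start in capitals:
Snhg1 (chr19:8723447-8723506, plus strand): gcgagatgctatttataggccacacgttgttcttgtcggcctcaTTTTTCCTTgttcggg
Snhg5 (chr9:88522878-88522937, minus strand): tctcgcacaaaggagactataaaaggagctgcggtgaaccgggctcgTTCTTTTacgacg
Snhg8 (chr3:123508317-123508376, minus strand): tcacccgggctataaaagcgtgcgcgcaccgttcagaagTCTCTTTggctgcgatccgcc
Snhg12 (chr4:132308638-132308697, plus strand): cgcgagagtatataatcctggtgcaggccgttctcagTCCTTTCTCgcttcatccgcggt
Gas5 (chr1:161035126-161035185, plus strand): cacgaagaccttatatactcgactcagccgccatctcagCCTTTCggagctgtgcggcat
RefSeq gave 10 start windows for 9 of the genes, Gas5 having 2, and Snhg6 had none. Such a run was found in 6 of the 10, those of Snhg1, Snhg3, Snhg5, Snhg8, Snhg12 and 1 of Gas5, against 45.9% of 32851 windows of all genes. Within 5 bases of the start it was found in 5 of the 10, against 32.9% of all windows. That search left out Snhg5, whose run begins 7 bases after the start. The runs of Snhg1 and Snhg12 were 9 bases long. TATAAA, the letters of a TATA box, was found on either strand of the 300 bases around the start in 4 of the 10 windows (Snhg1, Snhg3, Snhg5 and Snhg8), against 13.6% of all windows. CACGTG was found in 1, that of 6720401G13Rik (7.15% of all), and TGACGTCA, the letters bound by cAMP response factors, in 1 of Gas5 (1.79% of all). The RefSeq start of Mir17hg is the start of the deposited row, inside the hairpin cluster, so its window says nothing of the host's promoter.

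Levels between genes were compared per kilobase, in CPM (counts scaled to a library size of 1000000, with TMM factors) per kilobase of the GENCODE transcript matched by accession, for 9 of the genes. The model matched to Gas5 holds 2556 bases of its 3372-base span, and that matched to Snhg8 holds 776 bases of its 785-base span. The places of Gas5 and Snhg8 in the order are therefore uncertain. Apart from Gas5 and Snhg8, Snhg1 had the highest level. Its means were 19.3 ± 4.16 CPM per kilobase in vehicle (SD, n = 2) and 26.3 ± 1.71 in caffeine (SD, n = 3). Snhg3, the host of the U17 snoRNAs, followed with 12.4 ± 0.857 and 14.4 ± 1.38. Snhg6, Snhg5, Snhg12 and Malat1 came next, with means over the 5 libraries between 7.25 and 8.87 CPM per kilobase, and neighbours in that order overlapped in their libraries. Snhg8 had 6.11, overlapping Malat1, and the NR_015505 transcript of 6720401G13Rik had 2.52, below every library of Snhg8. No length was matched for Mir17hg, and the models the authors counted on may differ from these lengths.

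Between groups, 9 of the 10 genes had a higher mean level in caffeine and Malat1 a lower one. The median log2 fold change (caffeine minus vehicle, edgeR) of the 10 was 0.52, against 0.01 over all 13829 genes tested, and a positive value was found for 53% of all genes. All 10 passed the filter on low counts. The 3 caffeine libraries lay above both vehicle libraries in 7 of the 10, Snhg1, Snhg5, Snhg8, Snhg12, Gas5, Mir17hg and 6720401G13Rik, against 11.2% of all genes. Because the genes were picked on this contrast, nothing is read from these counts. With edgeR's quasi-likelihood test at an adjusted p of 0.05 (FDR 0.05), 0 of the 10 passed, where 0.00723% of all genes did. At an unadjusted p under 0.05 with edgeR, 6 were higher (3.13% of all genes were). At FDR 0.05, 2 passed with DESeq2 (0.0651% of all genes were called higher) and 0 with limma-voom (0.00723%). The 2 called by DESeq2 were Snhg5 and 6720401G13Rik.

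**Figure D2:**
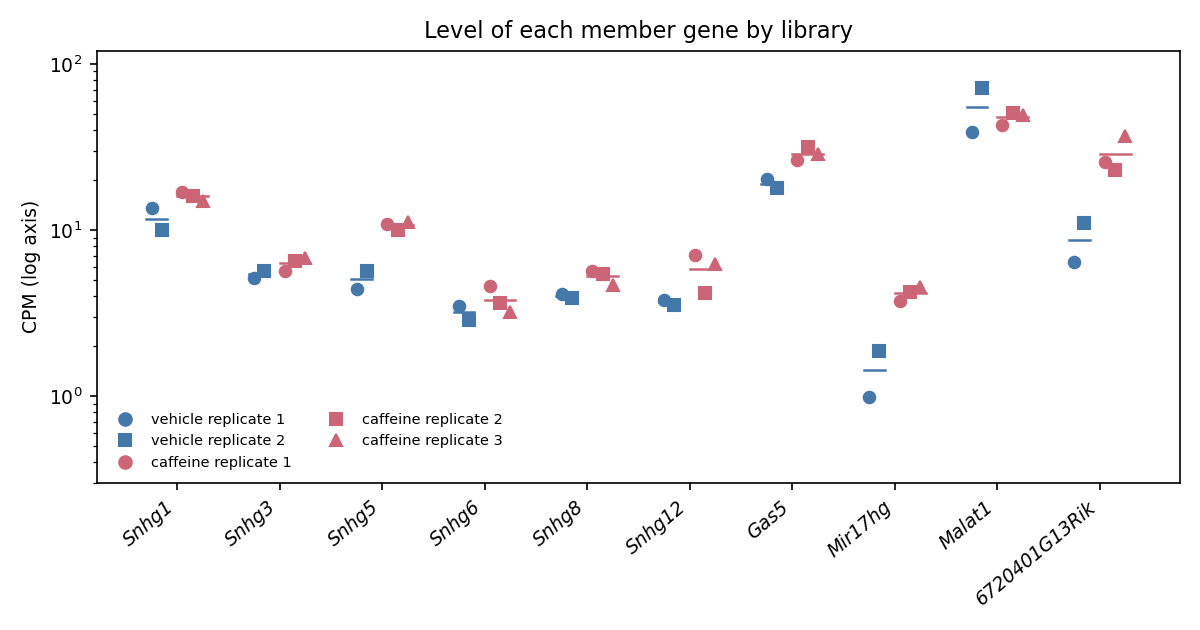
Each symbol is the level of a gene in 1 library, in CPM on a log axis, with vehicle in blue and caffeine in red, and the horizontal lines are group means. Snhg5, Mir17hg and 6720401G13Rik show the widest gaps between groups, while the Malat1, Snhg3 and Snhg6 libraries overlap.

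Snhg5 (chr9:88521053-88522897, minus strand), host of the U50 snoRNAs shown above, had 4.41 and 5.69 CPM in vehicle replicates 1 and 2 and 10.9, 10.1 and 11.1 CPM in caffeine replicates 1, 2 and 3. The lowest caffeine library was thus above the highest vehicle library, and the spread within each group was small beside the gap. The group means were 5.05 ± 0.909 (SD, n = 2) and 10.7 ± 0.558 CPM (SD, n = 3), which is 1.08 as log2 fold change (SE 0.20) and a ratio of 2.12. Leaving out 1 library at a time gave 0.91 to 1.25.

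Gas5 (chr1:161035166-161038537, plus strand), which holds 9 snoRNAs and whose spliced RNA is known to build up when growth stops, had 20.2 and 17.8 CPM (vehicle) against 26.5, 31.4 and 28.5 CPM (caffeine). No library of one group reached into the range of the other. The log2 fold change was 0.60 (SE 0.15), with means of 18.997 ± 1.68 (SD, n = 2) and 28.8 ± 2.47 CPM (SD, n = 3). The size depended on the annotation. In the Ensembl table Gas5 had 41.4 and 39.7 CPM (vehicle) against 51.7, 54.0 and 43.7 CPM (caffeine), which is 0.30 as log2 fold change (SE 0.14), with caffeine replicate 3 close to the vehicle libraries. The Ensembl count was 2.19 and 2.38 times the RefSeq count in vehicle and 2.08, 1.83 and 1.63 times in caffeine. The Ensembl table lists 25 Gas5 transcripts, 11 of them with at least 5% of the gene's counts in some library. Gas5-001, the largest on average, held 42.6% and 23.3% of the counts in vehicle and 22.7%, 26.0% and 12.9% in caffeine. The vehicle libraries thus differed from each other in this share by more than vehicle replicate 2 did from any caffeine library. Gas5-003 held 3.98% and 5.71% (vehicle) against 9.61%, 10.2% and 18.95% (caffeine), with no overlap, and Gas5-019 held 9.05% and 7.88% (vehicle) against 5.40%, 5.03% and 3.63% (caffeine), separated the other way. Both were chosen after their values were seen. Of the 11 transcripts with at least 5%, the caffeine shares lay above both vehicle shares in 5, below both in 1 and overlapped in 5. Among all 25 they lay above in 8 and below in 3. Such separations were not counted over the transcripts of all genes, and the shares within a gene depend on each other. Nothing is therefore read from these counts. Reads shared by so many transcripts are divided by estimate, and that error is not in these shares.

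The other Snhg genes had smaller log2 fold changes than Snhg5. Snhg12 (chr4:132308678-132311024, plus strand), host of the snoRNAs Snora16a, Snora44, Snora61 and Snord99, had 3.79 and 3.55 CPM (vehicle) against 7.10, 4.17 and 6.22 CPM (caffeine), giving 0.67 as log2 fold change (SE 0.27). Its caffeine libraries spread widely, and replicate 2 lay just above vehicle. Without 1 library at a time the value ran from 0.50 to 0.86, and the Ensembl table gave 0.72 (SE 0.22). Snhg1 (chr19:8723487-8726326, plus strand), host of Snord22 and 7 further snoRNAs, had 13.5 and 9.93 CPM (vehicle) against 17.0, 15.99 and 14.9 CPM (caffeine), giving 0.45 (SE 0.18). The vehicle libraries stood further apart than the caffeine libraries, and the value was 0.22 without vehicle replicate 2 and 0.68 without vehicle replicate 1. Snhg8 (chr3:123507552-123508336, minus strand), host of Snora24, had 4.12 and 3.87 CPM (vehicle) against 5.69, 5.46 and 4.63 CPM (caffeine), giving 0.40 (SE 0.23), so the groups did not overlap though the gap was narrow.

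Snhg3 and Snhg6 overlapped between groups. Snhg3 (chr4:132351933-132353686, minus strand) had 5.15 and 5.69 CPM (vehicle) against 5.65, 6.49 and 6.81 CPM (caffeine), giving 0.22 as log2 fold change (SE 0.21). Its deposited span is shared, in GENCODE, with 1673 bases of the protein-coding gene Rcc1 on the same strand. It is also shared there with 1450 bases of the noncoding gene Gm17300 on the opposite strand, so its count is uncertain. The deposited RefSeq row of Rcc1 reaches only to 132345750 and does not overlap that of Snhg3. Snhg6 (chr1:9942025-9944118, minus strand), host of Snord87, had 3.50 and 2.87 CPM (vehicle) against 4.57, 3.61 and 3.22 CPM (caffeine), giving 0.25 (SE 0.26). Caffeine replicate 3 lay between the vehicle libraries. The value was 0.09 without vehicle replicate 2 and 0.40 without vehicle replicate 1. In GENCODE, but not in the deposited RefSeq rows, the end of Snhg6 overlaps 61 bases of Mcmdc2 on the opposite strand.

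Rows for the hosted snoRNAs themselves held almost no counts. Snord22, inside Snhg1, had 4 and 3 counts in vehicle and 4, 4 and 9 in caffeine in the RefSeq table. Snora16a, inside Snhg12, had 3 and 0 counts in vehicle and 1, 1 and 6 in caffeine, and Snora44 had 1 count over all libraries. With so few counts no difference in these snoRNAs could be read, and the counts of a host say nothing of the amount of its snoRNA.

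Mir17hg had the fewest counts of the 10. The vehicle libraries held 24 and 41 counts (0.989 and 1.87 CPM) and the caffeine libraries 90, 98 and 100 counts (3.74, 4.21 and 4.54 CPM). The caffeine libraries lay close together and above both vehicle libraries, which differed from each other by 0.92 on the log2 scale. The means were 1.43 ± 0.621 (SD, n = 2) and 4.16 ± 0.403 CPM (SD, n = 3), which is 1.55 as log2 fold change (SE 0.32) and a ratio of 2.92. Without vehicle replicate 1 the log2 fold change was 1.15 and without vehicle replicate 2 it was 2.04. The Ensembl table gave nearly the same counts, 25 and 41 (vehicle) against 90, 98 and 100 (caffeine).

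Genes around the microRNA pathway were listed beside it. Of 10 genes listed as regulators of Mir17hg transcription, all 10 had a positive log2 fold change (median 0.13), where 53% of all genes did. With edgeR 0 passed FDR 0.05, and the list was not split into activators and repressors. The smallest p there belonged to Mycl1, a Myc family gene (0.90, SE 0.43, adjusted p = 0.980), and its relative Mycn had 0.16 (SE 0.13, adjusted p = 0.999). Of 17 tested microRNA processing factors, 12 were positive (median 0.08). The RNA helicase Ddx17, a partner of the nuclear processing enzyme Drosha, had 0.30 (SE 0.13), and Dicer1, which makes mature microRNAs, had -0.17 (SE 0.14). Among 18 tested genes studied as targets of the cluster, 13 were positive (median 0.10), with Smad4 at 0.22 (SE 0.15). E2f1, E2f2 and E2f3 belong to the target list and to the regulator list, so the counts of these lists are not separate.

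6720401G13Rik (chrX:50555744-50635258, minus strand) had the largest difference of the 10. Its levels were 6.43 and 11.0 CPM (vehicle) against 25.7, 23.1 and 37.0 CPM (caffeine). All caffeine libraries stood well above both vehicle libraries, and the vehicle libraries differed from each other by 0.77 on the log2 scale. The means were 8.70 ± 3.22 (SD, n = 2) and 28.6 ± 7.38 CPM (SD, n = 3), which is 1.72 as log2 fold change (SE 0.28) and a ratio of 3.29. Both RefSeq transcripts were higher in caffeine: NR_015505 had 4.69 and 7.62 CPM (vehicle) against 16.2, 14.5 and 26.9 CPM (caffeine), and NR_026976, which ends further downstream, had 1.73 and 3.31 CPM (vehicle) against 9.50, 8.52 and 10.1 CPM (caffeine). The share of NR_015505 was 72.8% and 69.9% (vehicle) against 63.0%, 63.0% and 72.8% (caffeine), so the groups overlapped in transcript share. Of the 11 transcripts of the 10 genes, 0 passed FDR 0.05 with edgeR, where 0% of 18418 tested transcripts did. At an unadjusted p under 0.05 with edgeR there were 5 (7.36% of all). With DESeq2, 3 passed FDR 0.05 (1.05% of all).

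The 2 annotations gave very different counts for 6720401G13Rik. The Ensembl table listed 16 and 48 counts in vehicle and 118, 118 and 160 in caffeine, which was 0.103 and 0.199 times the RefSeq count in vehicle and 0.191, 0.219 and 0.196 times in caffeine. The direction was the same, with a log2 fold change of 2.03 (SE 0.45). Snhg1, Snhg5, Snhg6 and Snhg8 were not analysed there. Of the 6 genes read from the Ensembl table, 0 passed FDR 0.05 with edgeR (0.013% of 15440 genes did) and 3 had an unadjusted p under 0.05 (6.19% of all).

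**Figure D3:**
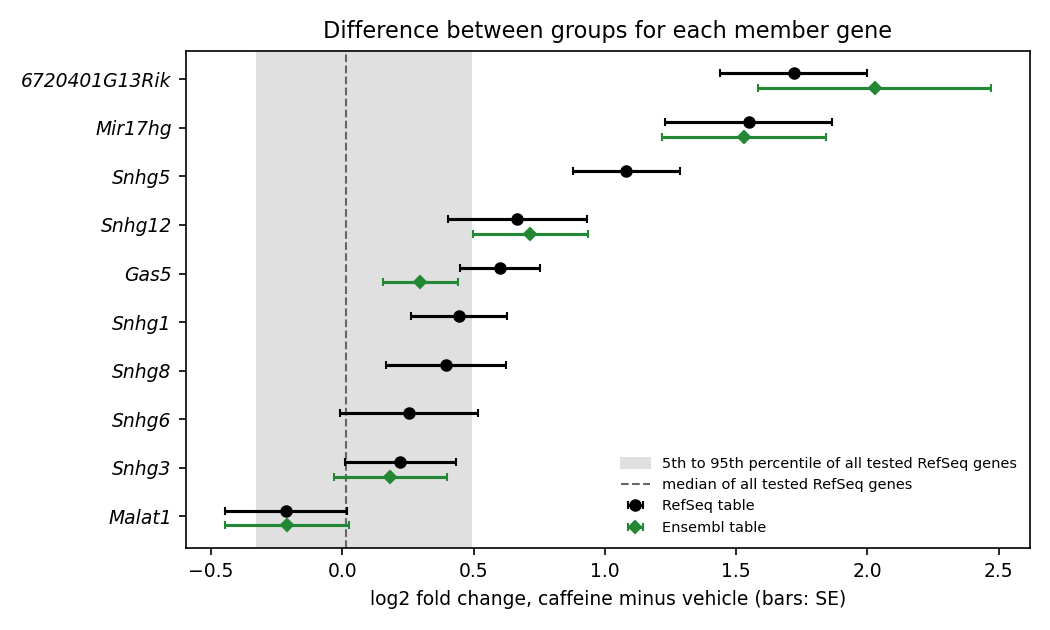
The horizontal axis gives the log2 fold change, caffeine minus vehicle, with bars of 1 SE, for the RefSeq table (circles) and the Ensembl table (diamonds, 6 genes), and the grey band spans the 5th to 95th percentile of all tested genes, -0.32 to 0.49. The sign is the same in both tables for the 6 shared genes, and Gas5 is nearer to 0 in the Ensembl table.

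Because 6720401G13Rik is X-linked and the sexes in each pool are not given, Xist, the RNA made from the inactive X in female cells, was set beside it. Xist had 12.3 and 90.7 CPM (vehicle) against 57.7, 117 and 121 CPM (caffeine). Of 4 Y-linked genes read, Ddx3y had 45.6 and 33.8 CPM (vehicle) against 53.6, 25.4 and 25.7 CPM (caffeine), a log2 fold change of -0.18, the one nearest to 0. Eif2s3y had 50.5 and 27.0 CPM (vehicle) against 35.6, 17.4 and 20.3 CPM (caffeine), a log2 fold change of -0.66, and Kdm5d and Uty had -0.21 and -0.28. All 4 overlapped between groups. Vehicle replicate 1 had the least Xist and the least 6720401G13Rik, and without that library the log2 fold change of 6720401G13Rik was 1.38 (SE 0.29). The part of sex composition in the result was not tested.

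**Figure D4:**
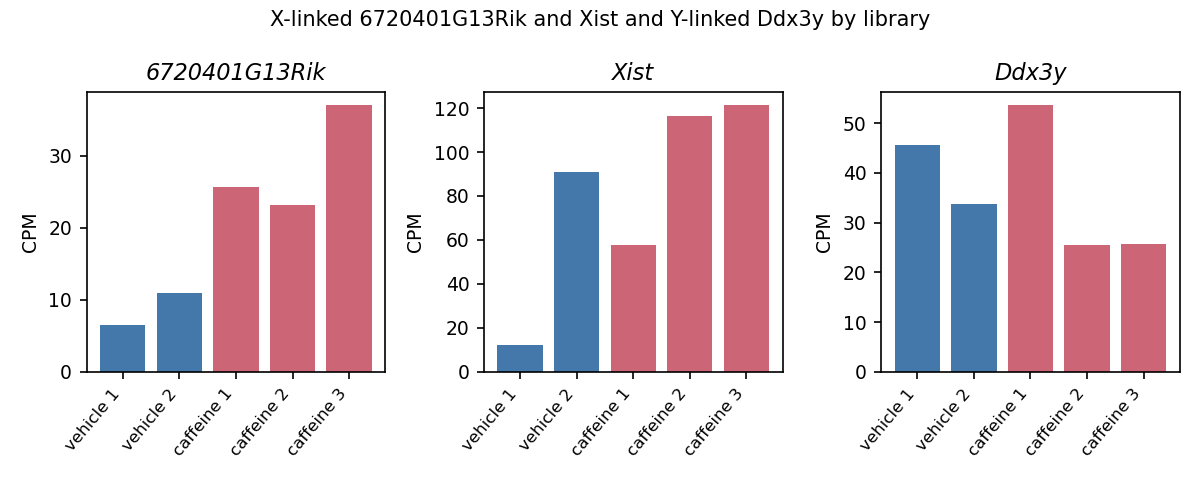
Bars give CPM by library for 6720401G13Rik, Xist and Ddx3y, vehicle in blue and caffeine in red. Vehicle replicate 1 has the lowest bar for 6720401G13Rik (6.43 CPM) and for Xist (12.3 CPM).

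Malat1 (chr19:5795690-5802671, minus strand) was the gene of the 10 with a lower mean in caffeine. It had 38.8 and 72.0 CPM (vehicle) against 42.8, 50.9 and 49.3 CPM (caffeine), so the caffeine libraries lay between the vehicle libraries. The log2 fold change was -0.22 (SE 0.23), -0.60 without vehicle replicate 1 and 0.27 without vehicle replicate 2, so its sign rested on which vehicle library was kept. RefSeq and Ensembl gave the same counts. In GENCODE a 453-base gene of the opposite strand, Gm37376, and an 86-base RNA gene of the same strand, Gm27694, lie inside Malat1.

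Other genes of these kinds were taken from lists, 174 tested genes in 10 lists, none of them passing FDR 0.05 with edgeR. The lists were chosen with earlier results of these data known. Counts over lists, here and elsewhere, are therefore descriptions, and nothing is read from them. In all, 25 (14.4%) had an unadjusted p under 0.05, against 5.2% of all tested genes. At FDR 0.05, 2 passed with DESeq2, Meg3 and Rian (1.15%, against 0.13% of all genes), and 0 with limma-voom (against 0.00723%). Of 26 further noncoding host genes listed, 12 were tested, and 11 of these had a positive log2 fold change (median 0.59). In 8 of the 12 all caffeine libraries lay above both vehicle libraries, 66.7% against 11.2% of all genes. Some of the 12 held few counts, such as Snhg10 with 6 to 13 per library. The imprinted Meg3, which heads a domain of microRNAs and snoRNAs, had 7.29 and 12.2 CPM (vehicle) against 37.8, 25.9 and 42.4 CPM (caffeine), giving 1.86 as log2 fold change (SE 0.28, adjusted p = 0.208). Rian, a snoRNA host of the same domain, had 32.2 and 39.4 CPM (vehicle) against 53.9, 57.2 and 59.7 CPM (caffeine), or 0.67 (SE 0.15, adjusted p = 0.383), and Mir22hg, host of miR-22, 0.95 (SE 0.34, adjusted p = 0.899).

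Protein-coding hosts of snoRNAs, which include ribosomal protein and translation factor genes, lay the other way. Of 35 tested, 29 had a negative log2 fold change (median -0.18), and in 15 all caffeine libraries lay below both vehicle libraries, 42.9% against 9.27% of all genes. The nucleolar protein gene Ncl had 1025 and 1004 CPM (vehicle) against 627, 793 and 714 CPM (caffeine), giving -0.51 (SE 0.13, adjusted p = 0.517), and the nucleolar chaperone gene Npm1 -0.44 (SE 0.13, adjusted p = 0.725). The translation initiation factor gene Eif4a2 was an exception, with 126 and 135 CPM (vehicle) against 213, 187 and 161 CPM (caffeine), giving 0.52 (SE 0.14, adjusted p = 0.606). Of 19 genes for snoRNP proteins and their assembly, 17 were negative (median -0.16), with the snoRNP core genes Nop58 at -0.29 (SE 0.14) and Dkc1 at -0.27 (SE 0.14). The list counts of coding and noncoding hosts were not tested against each other.

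Nonsense-mediated decay factors had a median of -0.06 (13 of 20 negative), with Upf3b at -0.49 (SE 0.18, adjusted p = 0.912) and Upf2 at -0.32 (SE 0.17, adjusted p = 0.992). Of 23 tested transcripts known as targets of decay, 19 were positive (median 0.07), led by the stress factor gene Atf4 (0.36, SE 0.14, adjusted p = 0.924) and the splicing kinase gene Clk1 (0.47, SE 0.21, adjusted p = 0.953). Of 10 tested genes listed as further nuclear noncoding RNAs, a list that also holds H19, 6 were positive and 4 negative (median 0.17). Neat1, the scaffold of paraspeckles and neighbour of Malat1 on chromosome 19, had 0.659 and 0.683 CPM (vehicle) against 1.99, 1.76 and 2.41 CPM (caffeine), giving 1.61 (SE 0.36, adjusted p = 0.383). Kcnq1ot1, an imprinted antisense RNA, had 7.79 and 12.9 CPM (vehicle) against 6.31, 5.46 and 5.49 CPM (caffeine), giving -0.85 (SE 0.23, adjusted p = 0.606). Nuclear speckle and paraspeckle proteins had a median of -0.04 (10 of 18 negative), with the paraspeckle gene Nono at -0.26 (SE 0.12).

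**Figure D5:**
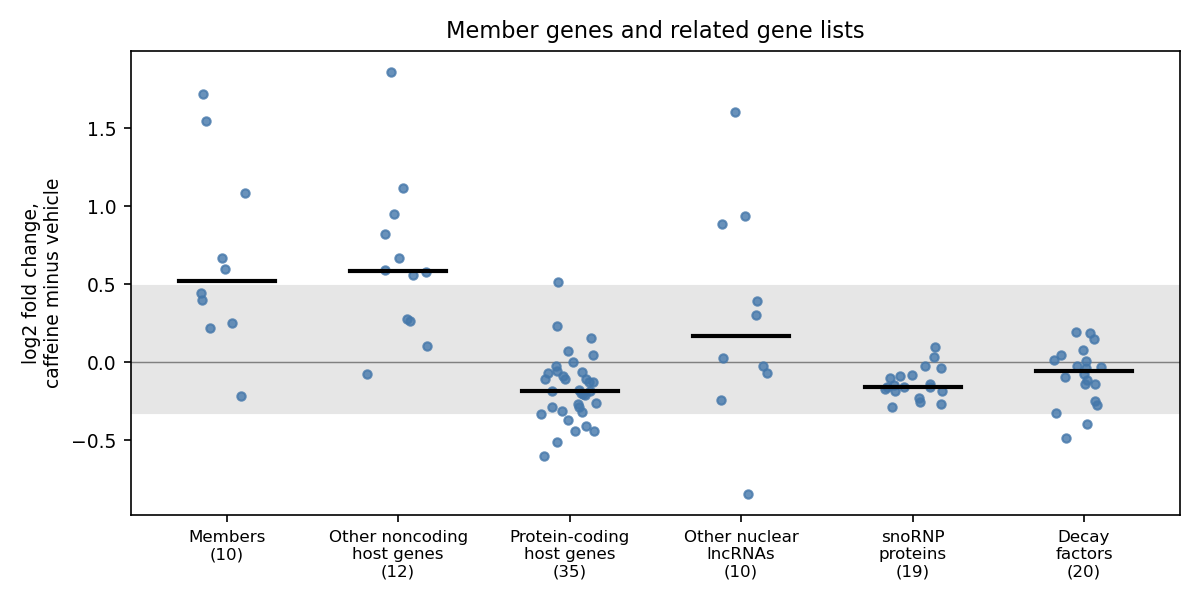
Each point is the log2 fold change of 1 tested gene, caffeine minus vehicle, black lines are list medians, and the grey band spans the 5th to 95th percentile of all tested genes. The medians are 0.52 for the members, 0.59 for further noncoding hosts and -0.18 for protein-coding hosts.

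The protein-coding genes beside the hosts differed among themselves. Slc3a2, which starts beside Snhg1 on the other strand, gave 0.01 on the log2 scale (SE 0.14, adjusted p = 0.999), and Trnau1ap, downstream of Snhg12, had -0.05 (SE 0.14, adjusted p = 0.999). Zbtb37, which starts beside Gas5 on the other strand, had 2.72 and 10.7 CPM (vehicle) against 8.47, 9.84 and 9.80 CPM (caffeine), giving 0.49 (SE 0.52, adjusted p = 0.999), so vehicle replicate 1 was far below the other 4 libraries. Prss12, downstream of Snhg8, held 9 to 17 counts per library, with 0.453 and 0.410 CPM (vehicle) against 0.706, 0.559 and 0.545 CPM (caffeine), giving 0.48 (SE 0.45, adjusted p = 0.999). Its caffeine libraries lay above both vehicle libraries, as those of Snhg8 did. Differences between each host and its neighbour were not tested.

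By root mean square distance between centred log2 CPM profiles over the 5 libraries, the genes most like Snhg5 among 11937 compared were Tmem181b-ps (0.0857), Myh7b (0.0932) and Tctn1 (0.124), where the median gene was at 0.560. Most like 6720401G13Rik were Meg3 (0.154), Lime1 (0.260) and Gm10052 (0.294), against a median of 0.916. Snhg5 and 6720401G13Rik were picked with their group difference known, and that difference is part of the profile. Genes with a similar difference are therefore near them by construction, and nothing is read from these distances.

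Values outside these genes also differed between the groups. The 7 cardiomyocyte markers, 0 of them under 1 CPM throughout, summed to 32930 and 35100 CPM in the vehicle libraries and to between 28770 and 29030 CPM in caffeine. In 4 of the 7 (Myh6, Myh7, Myl2 and Ttn) all caffeine libraries lay below vehicle, against 9.27% of all genes. Tnnt2, Actc1 and Nkx2-5 overlapped, and Nkx2-5 had a positive log2 fold change (0.13). The lowest adjusted p of the 7 was that of Ttn (edgeR, 0.517). Endothelial, epicardial and erythroid sums overlapped. Hepatic and foregut endoderm markers summed to 7.66 and 114 CPM (vehicle) against 37.3, 23.9 and 7.04 CPM (caffeine), so vehicle replicate 2 had the highest sum, with 90.4 CPM of Afp, where vehicle replicate 1 had 4.86. Of 4 macrophage markers, 3 were under 1 CPM in every library. Rn45s, the ribosomal RNA precursor, had 8910 and 5303 CPM (vehicle) against 1683, 2724 and 2672 CPM (caffeine). The part of these differences in the values of the host genes was not tested, and in bulk tissue fewer cells of a type and less RNA per cell cannot be told apart.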

How the data were processed

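The authors deposited estimated counts per gene and per transcript, not scaled between libraries, on a RefSeq annotation and on Ensembl release 71, per the file headers. TopHat and Partek are the tools, and mm10 (GRCm38) the build, listed in the submitters' processing notes. Whether counting used strand is not given in the sources used here, so reads of overlapping genes cannot be told apart. Deposited stop coordinates of RefSeq rows are printed minus 1. The members and gene lists were chosen with earlier results of these data known.

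Estimated counts were rounded, filtered with filterByExpr, scaled by TMM (factors 0.970 to 1.02) and tested with edgeR 4.0.16 in R 4.3.3 (robust quasi-likelihood fit, two-sided), and p-values were adjusted by Benjamini-Hochberg across every tested gene or transcript. Each SE was obtained by dividing the absolute log2 fold change by the root of the F statistic. limma 3.58.1 (voom) and DESeq2 1.42.0 were alternatives. The steps were tested on simulated data. Each library is a pool of embryos that the labels count as 1 sample, and p-values measure the spread between these pools. Libraries of a pair differed by far more than counting error. The chi-square per gene was 15.9 to 34.7 for pairs within a group and 12.2 to 44.0 for pairs across groups. All 10 members and up to 4 genes of each list, those with the smallest p, were eligible to be named, and the neighbours, Xist, Ddx3y, Eif2s3y, Kdm5d, Uty, Rn45s, Gas5-003 and Gas5-019 were chosen outside that rule, after values were seen. Sequences are from RefSeq (GRCm38.p6) and GENCODE M21.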

Additional observations from a re-analysis of the deposited data

How the results depend on the processing

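Of 144 alternative values of the 10 members' log2 fold changes, 135 moved by less than the spread between replicates, 8 by more, and 1 changed sign. The sign change was that of Malat1, with 0.27 without vehicle replicate 2 and -0.60 without vehicle replicate 1. The 8 were Snhg1, Snhg5 and Mir17hg without either vehicle library, Malat1 without vehicle replicate 1 and Gas5 in the Ensembl table. The fit that was not robust returned the main values, so some alternatives could not move. The 135 are therefore no measure of stability. The median of the 10 ran from 0.41 to 0.69 when 1 library was left out. The number of members with a positive value, an alternative chosen after seeing the data, was 9 or 10 of 10 in all settings that kept the 10, 7 of 8 with at least 5 CPM in 2 libraries and 5 of 6 in the Ensembl table. RefSeq genes past FDR 0.05 numbered 6 with no low-count filter, 18 with DESeq2, 2 in the Ensembl table and 0 to 18 without 1 library (0 without vehicle replicate 1, 18 without caffeine replicate 1), against 1 with all libraries. They numbered 52 with the replicate number as a block. RefSeq transcripts past FDR 0.05 numbered 194 with DESeq2, 0 to 1 without 1 library and 9 with the replicate block. The replicate numbers are not stated to pair the libraries, and deviations of same-numbered libraries correlated at -0.02 and 0.13 across genes. Fits without a vehicle library assume that the lone one varies like the caffeine libraries. With 24 to 171 counts per library in Mir17hg, Snhg6, Snhg8 and Snhg12, counting error also limits their precision.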
